A study of Mus musculus with 8 samples.

Results

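Long noncoding RNAs are transcripts that are processed much like messenger RNAs but act as RNA, many of them inside the nucleus. *Malat1* is retained in nuclear speckles, which store splicing factors, and *Neat1* is the scaffold on which paraspeckles assemble. *Meg3* and *Kcnq1ot1* belong to imprinted clusters, where the copy inherited from 1 parent is expressed, and *Kcnq1ot1* silences neighbouring genes on its own chromosome. *Gas5*, *Snhg1*, *Snhg11* and *Snhg12* are host genes whose introns carry small nucleolar RNAs (snoRNAs), guides for the modification of ribosomal and other RNAs. The spliced host RNAs of *Gas5*, *Snhg1* and *Snhg12* are known in mammals as 5′ terminal oligopyrimidine (5′ TOP) transcripts and as substrates of nonsense-mediated decay, and *Snhg11* is best known as an RNA abundant in mouse brain.

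These 8 RNAs were examined in visceral white adipose tissue (vWAT), which the sample titles place in the epididymal depot, of 4 KIKO and 4 WT male mice aged 8 months. KIKO (knock-in knock-out) mice carry a knock-in and a knock-out allele in every cell and model Friedreich's ataxia. WT mice were C57BL/6 littermates with both alleles intact, and the labels give the C57BL/6 strain for both genotypes. The members were taken by symbol from the GENCODE M21 annotation of GRCm38 and matched by Ensembl identifier. Of the 8 members, 6 had a row in the count table of 31053 genes and all 6 passed edgeR's filter on low counts, which left 11080 genes. *Gas5* and *Snhg1* had no row and were not analysed here beyond their sequence and position. The members were selected on their measured log2 fold change between genotypes and their level relative to the trend of expression on transcript length, so both are given as descriptions. Where the fit across all genes is quoted for a member, its call is printed with no p and nothing is read from it.

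Each library held 2602189 to 3478539 counts. The tissue label held: 8 adipocyte markers summed to 29336 to 35719 CPM in KIKO mice and 28465 to 39212 CPM in WT mice, and 7 epididymis markers together had 12 counts in all libraries. WT mouse 3 stood apart from the other WT mice in its length trend, given further on, and values of the members that it moves most are also given without it. A negative log2 fold change means a lower level in KIKO mice.

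The 3′ ends of the 6 measured RNAs are shown because the libraries were made from mRNA. They were searched for AATAAA, the sequence of a polyadenylation signal. A match does not show how an end is made or whether the RNA carries a tail. The last 30 bases of the longest GENCODE transcript are given 5′ to 3′ on the transcribed strand, with a match to AATAAA in capitals. For *Neat1*, which is made as a long and a short form from 1 start, both ends are shown.
Snhg11 (chr2:158386116-158386145, plus strand): gaaccacaaAATAAAcactgtcttccttaa
Malat1 (chr19:5795690-5795719, minus strand): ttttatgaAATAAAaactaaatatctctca
Neat1, long form (chr19:5824708-5824737, minus strand): gagaacgaacgtgagcaggaaaaagcaaaa
Neat1, short form (chr19:5842307-5842336, minus strand): tttacagcaaAATAAAggtttgagattgaa
Meg3 (chr12:109571697-109571726, plus strand): gctttcAATAAAtttcttgttttaactaaa
Kcnq1ot1 (chr7:143203458-143203487, minus strand): taatAATAAAgacattaaaatccacaaaac
Snhg12 (chr4:132310995-132311024, plus strand): agttggttcAATAAAgacttttggaaagtg

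AATAAA stood 14 to 20 bases before the annotated end in 6 of these 7 transcripts, and the long *Neat1* form had no match in this window. Among the longest transcripts of 11075 genes tested, searched on the transcribed strand, 52.8% held AATAAA in their last 30 bases. Inner runs of 10 or more A differed between the members. The single-exon *Kcnq1ot1* transcript held 10 such runs, the longest of 41 bases, *Meg3* held 6 with the longest of 16, *Malat1* and *Snhg12* held 1 each of 12, and *Snhg11* and *Neat1* held 0. Of the genes tested, 20.6% had at least 1 run of this kind in their longest transcript.

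The start sites of the member host RNAs are shown, with those of the other tested host RNAs that have a RefSeq window. Some of these genes are known for the 5′ TOP motif, a run of C and T that begins at the first transcribed base. Each window runs from 10 bases before the RefSeq start to 20 bases from it (GRCm38.p6), on the transcribed strand, with the C or T run that holds the first base in capitals.
Snhg12 (chr4:132308668-132308697, plus strand): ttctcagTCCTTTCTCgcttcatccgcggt
Gas5, downstream start (chr1:161035156-161035185, plus strand): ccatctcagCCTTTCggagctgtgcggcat
Gas5, upstream start (chr1:161034591-161034620, plus strand): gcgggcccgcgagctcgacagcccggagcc
Snhg1 (chr19:8723477-8723506, plus strand): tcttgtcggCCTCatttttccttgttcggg
Snhg18 (chr15:32244643-32244672, minus strand): cccaggCCCCTCCTCTagccccgcctcttc
Snhg11 (chr2:158375703-158375732, plus strand): tgcggcactcactcacgcactcagcctgct
Snhg20 (chr11:117076773-117076802, plus strand): gttccggccggaagtgcatttgcagagctg
Snhg9 (chr17:24719946-24719975, minus strand): actttccctcgccgaagccgcgccctacac

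The run was 9 bases in *Snhg12*, 6 at the downstream start of *Gas5*, 4 in *Snhg1* and 10 in *Snhg18*, a host RNA outside the set. *Snhg11*, *Snhg20*, *Snhg9* and the upstream start of *Gas5* begin on another base and had no run. A run of 5 or more bases was found in 5 of 18 start windows of host RNAs, members included, and in 10.1% of 32851 RefSeq start windows. These runs take in C and T before the start, so their lengths and shares do not count the motif itself. By annotation the members also differ in their snoRNA content, with 9 snoRNA positions inside *Gas5*, 8 inside *Snhg1*, 4 inside *Snhg12* and 2 inside *Snhg11*. GENCODE M21 types *Snhg11* as protein coding, and its label as a noncoding RNA here follows its name.

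*Snhg11* (ENSMUSG00000044349, chromosome 2 from 158375638 to 158386145) was lower in every KIKO mouse than in any WT mouse. Its level in KIKO mice 1 to 4 was 134, 166, 177 and 158 CPM. In WT mice 1 to 4 it was 261, 273, 252 and 239 CPM. CPM are counts scaled to the library total and, by the TMM method, between libraries. The gap between the genotypes, from 177 to 239 CPM, was wider than the range within either. The mean was 159 ± 18.3 CPM in KIKO mice and 256 ± 14.6 CPM in WT mice (SD, n = 4 each). This was 38% lower, with -0.69 ± 0.12 (SE) as the log2 fold change. WT mouse 3 lay within the range of the other WT mice, and the log2 fold change without it was -0.70. Since the tissue was sequenced in bulk, fewer cells that express an RNA and less of it per cell cannot be told apart. Of 11 neuron markers, 2 passed the filter on low counts and *Th*, which makes the sympathetic transmitter precursor, had no count. The summed level of the 11 was 23.3 to 62.3 CPM in KIKO mice and 41.8 to 77.7 CPM in WT mice. Of 6 markers of Schwann cells, the glia of nerves, 2 passed the filter. These 6 summed to 44.7 to 66.0 CPM in KIKO mice and 38.2 to 50.5 CPM in WT mice. The neuron sums and the Schwann cell sums both overlapped between genotypes. The part of nerve tissue in the *Snhg11* level was not tested.

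*Kcnq1ot1* (ENSMUSG00000101609, chromosome 7 from 143203458 to 143296549), the antisense RNA of the *Kcnq1* imprinted cluster, was also lower in all KIKO mice. Its level was 158, 146, 147 and 146 CPM in KIKO mice 1 to 4. In WT mice 1 to 4 it was 280, 238, 184 and 211 CPM, so the groups did not overlap, with WT mouse 3 the nearest to the KIKO mice. The mean was 149 ± 5.81 CPM in KIKO mice and 228 ± 40.6 CPM in WT mice (SD, n = 4 each), and the log2 fold change was -0.61 ± 0.13 (SE). The KIKO mice lay close together, with a coefficient of variation of 3.89%, against 17.8% in WT mice. *Kcnq1*, the potassium channel gene that it overlaps on the opposite strand, had 59 counts in all 8 libraries and was not tested. Whether the counting used strand is not given in the sources used here, so reads of the 2 genes may not be separated where they overlap.

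*Malat1* (ENSMUSG00000092341, chromosome 19 from 5795690 to 5802672) was the most counted member and, among WT mice, the most variable, with a coefficient of variation of 30.2%. It took 0.541% to 0.890% of all counts in KIKO libraries and 0.423% to 0.984% in WT libraries. Its level was 5732, 5947, 8919 and 6220 CPM in KIKO mice 1 to 4, where mouse 3 was high and the others lay together. In WT mice 1 to 4 it was 9412, 9255, 4418 and 7594 CPM, with mouse 3 the lowest of all 8. The groups overlapped, and the log2 fold change of -0.19 was smaller than its standard error of 0.22. It was -0.38 without WT mouse 3 and -0.36 without KIKO mouse 3, and -0.08 and -0.09 without WT mice 1 and 2.

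*Neat1* (ENSMUSG00000092274, chromosome 19 from 5824708 to 5845478), which lies 22036 bases from *Malat1* on the same strand, overlapped between genotypes. Its level was 1402, 1035, 1828 and 1397 CPM in KIKO mice 1 to 4. In WT mice 1 to 4 it was 1567, 2191, 1836 and 1869 CPM. KIKO mouse 3 lay within the WT range and the other 3 KIKO mice lay below it. The log2 fold change was -0.40 (standard error 0.17). The count per gene does not separate the long form, which builds paraspeckles, from the short form.

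*Meg3* (ENSMUSG00000021268, chromosome 12 from 109541001 to 109571726), the maternally expressed RNA of the *Dlk1*-*Dio3* imprinted cluster, overlapped as well. Its level was 194, 179, 125 and 166 CPM in KIKO mice 1 to 4, and 246, 201, 190 and 168 CPM in WT mice 1 to 4. KIKO mouse 3, which was high for *Malat1*, was the lowest for *Meg3*. The log2 fold change was -0.28 (standard error 0.15), and it was -0.16 both without KIKO mouse 3 and without WT mouse 1. Of its cluster, *Dlk1* had 24 counts and *Mirg* 59 counts in all libraries, too few to test.

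*Snhg12* (ENSMUSG00000086290, chromosome 4 from 132308623 to 132311024) was the only measured member with a higher mean in KIKO mice. Its level was 28.1, 29.6, 29.8 and 31.3 CPM in KIKO mice 1 to 4, from 74 to 107 counts. In WT mice 1 to 4 it was 20.3, 21.8, 32.1 and 22.4 CPM, from 64 to 96 counts, and mouse 3 was the highest of all 8. The log2 fold change was 0.30 (standard error 0.16), and without WT mouse 3 it was 0.47. That mouse alone among WT mice reached the KIKO levels, so the lack of overlap without it is fixed by that choice. In that mouse *Snhg12* was the highest and *Malat1* the lowest of the 8 libraries.

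**Figure D1:**
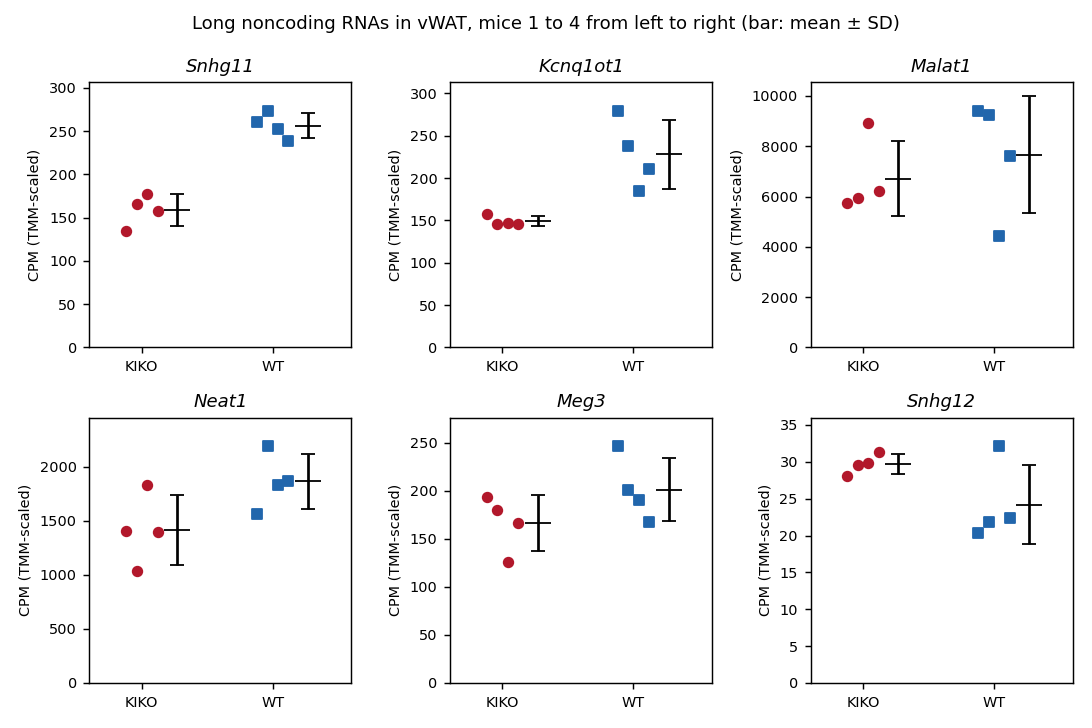
Level of the 6 measured long noncoding RNAs in vWAT, in CPM scaled by TMM on an axis from 0, for KIKO mice 1 to 4 (circles) and WT mice 1 to 4 (squares), with mean ± SD beside each group. The 4 KIKO mice lie below all WT mice for Snhg11 (134 to 177 CPM, against 239 to 273 CPM) and Kcnq1ot1, and the groups overlap for the other 4.

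Across the 11080 genes tested, 0.677% passed an adjusted p under 0.05 in edgeR's quasi-likelihood test with Benjamini-Hochberg adjustment, and 0.397% passed as lower in KIKO mice. Among the members, 2 of 6 passed, *Snhg11* and *Kcnq1ot1*, both lower. The number of members that passed was 1 without KIKO mouse 3 or WT mouse 1, and 0 without KIKO mouse 1, 2 or 4 or WT mouse 2 or 4. Without WT mouse 3 both members passed, as did 5.81% of all genes tested. Each KIKO mouse lay below each WT mouse in 4.56% of tested genes, groups did not overlap in either direction in 8.45%, and both members that passed were of the first kind. A log2 fold change below 0 was found in 51.0% of all genes and in 5 of the 6 members, whose median was -0.34. These shares stand beside each other as a description, since this contrast was known when the members were chosen.

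Most of these RNAs are long, and the libraries differed in how their levels followed transcript length. The level of each gene in a library, relative to its mean over all libraries, was correlated across genes with the length of its longest annotated transcript. Spearman's rho was -0.166, -0.157, -0.0841 and -0.214 in KIKO mice 1 to 4. It was 0.262, 0.253, -0.110 and 0.110 in WT mice 1 to 4, so that long genes were relatively low in all KIKO mice and in WT mouse 3. The genes within a library are not independent replicates, and only the 8 values were compared. The mean was -0.155 in KIKO mice and 0.129 in WT mice, a difference of -0.28, with p = 0.0571 in a two-sided exact permutation test over 70 assignments, where the smallest possible p is 0.0286. The difference was -0.15 with the median transcript length of each gene in place of the longest. WT mouse 3 was the only WT library within the KIKO range, so a comparison without it is fixed by that choice and is given no test, and its difference was -0.37.

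The fold changes of the genes followed the same order. In the 473 genes with transcripts of up to 1000 bases the median log2 fold change was 0.17, and 25.2% were lower in KIKO mice. It was 0.09 in those of 1000 to 2000 bases, 0.02 up to 4000 bases, -0.07 up to 8000 bases and -0.19 up to 16000 bases. In the 29 genes above 16000 bases it was -0.38, and 82.8% were lower. The members run through this range, from 1538 bases in *Snhg12* through 5864 in *Snhg11*, 6983 in *Malat1*, 14548 in *Meg3* and 20771 in *Neat1* to 93092 in *Kcnq1ot1*. The origin of the length trend was not tested. The share of mitochondrially encoded counts was 9.93% to 10.6% in KIKO libraries and 6.91% to 10.7% in WT libraries.

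**Figure D2:**
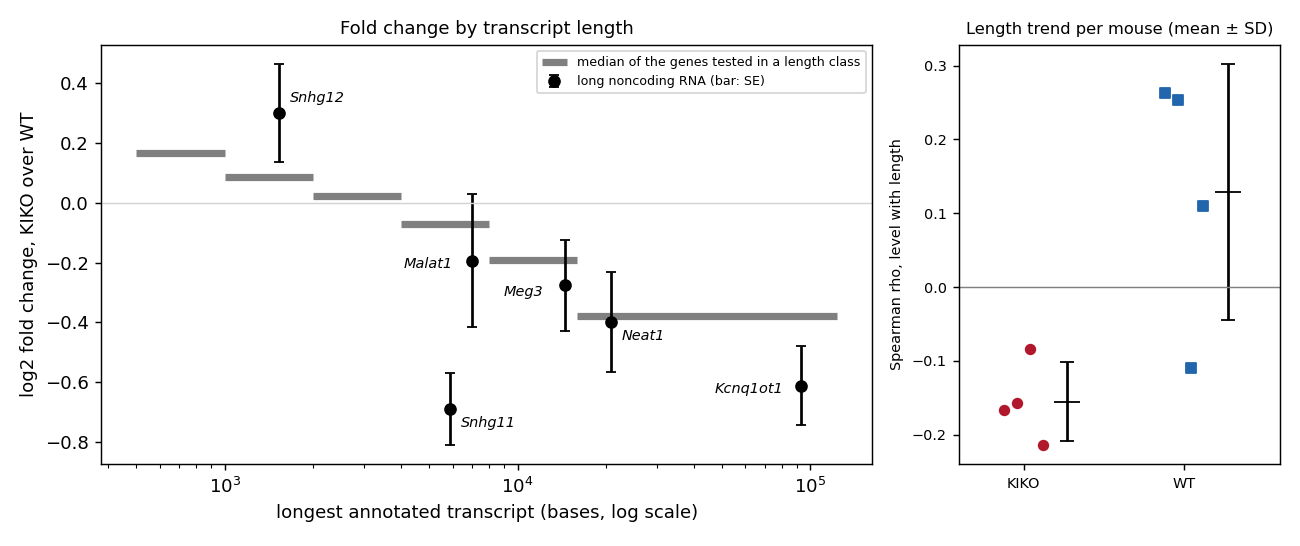
Left, log2 fold change of KIKO over WT mice (circles, bars are the standard error) against the longest annotated transcript in bases on a log axis, with grey bars for the median of all tested genes in each length class. Right, Spearman's rho of level with length in each library, with mean ± SD, where KIKO mice run from -0.214 to -0.0841 and WT mice from -0.110 to 0.262. Malat1, Meg3 and Neat1 lie within 1 standard error of the grey bars, and Snhg11, at 5864 bases, lies at -0.69 below a class median of -0.07.

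Each member was then set against the 200 tested genes nearest to it in length. The value given is the log2 level of the member minus the median of those genes, both relative to their means over all libraries. For *Snhg11* it was -0.58, -0.23, -0.19 and -0.33 in KIKO mice 1 to 4, and 0.28, 0.39, 0.39 and 0.21 in WT mice 1 to 4. The KIKO mean minus the WT mean was -0.65, close to the -0.69 of *Snhg11* on its own, since genes of like length (5732 to 5999 bases) differed by only -0.04. Of these 200 genes, 58.0% were lower in KIKO mice and 11 were as low as or lower than *Snhg11* in log2 fold change. The genotypes did not overlap on this scale. In an edgeR fit with a smooth trend on length and GC content per library as an offset, its log2 fold change was -0.59.

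For *Kcnq1ot1* the neighbours in length moved too. Its own difference was -0.59 and that of its 200 neighbours -0.27, which left -0.32, and 90.5% of the neighbours were lower in KIKO mice. The remaining values were -0.05, -0.25, -0.23 and -0.16 in KIKO mice 1 to 4. In WT mice 1 to 4 they were 0.32, 0.15, 0.05 and 0.09, so the genotypes still did not overlap, by a gap narrower than the range of either group. At 93092 bases this RNA has few genes like it. Only 2 tested genes, itself included, were as long, and its neighbours ran from 10904 bases upward. Where a smooth trend was fitted instead, which extends to its own length, the remaining difference was -0.10, and the fit with length and GC content gave the same -0.10. Both smooth fits held *Kcnq1ot1* among their genes, unlike the 200 neighbours. At that length they can be drawn toward its own values, and they are not separate from each other. How much of its lower level goes beyond the length trend therefore depends on how the trend is drawn at that length.

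*Meg3* and *Neat1* were measured against nearly the same long genes, of which 91.0% were lower in KIKO mice in each case. *Meg3* differed by -0.28 and its neighbours by -0.27, leaving -0.01. *Neat1* differed by -0.42 and its neighbours by -0.27, leaving -0.15, with overlap between genotypes. *Neat1* was placed by its long form, though the counts do not separate the forms. Only 14 tested genes, itself included, were as long, and its neighbours ran from 10883 bases. With the median transcript length of each gene, the difference left was -0.35 for *Neat1* and -0.32 for *Meg3*. The remainder of *Neat1* was 0.01 without KIKO mouse 2 and -0.28 without WT mouse 1, and that of *Meg3* ran from -0.09 to 0.14 over the fits without 1 mouse. *Malat1* differed by -0.16 and its neighbours by -0.10, leaving -0.05. This remainder was -0.27 without WT mouse 3, 0.03 without WT mouse 1, 0.04 without WT mouse 2 and 0.01 without KIKO mouse 1, so its sign rests on single mice. Its remaining values were -0.21, -0.17, 0.38 and -0.11 in KIKO mice 1 to 4, and 0.29, 0.33, -0.62 and 0.10 in WT mice 1 to 4. WT mouse 3 was the lowest and KIKO mouse 3 the highest of the 8 on this scale too.

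*Snhg12* differed by 0.31 and its short neighbours (1482 to 1597 bases) by 0.09, leaving 0.22, or 0.34 without WT mouse 3. The remaining values were 0.05, 0.07, 0.12 and 0.15 in KIKO mice 1 to 4, and -0.31, -0.20, 0.22 and -0.22 in WT mice 1 to 4. Only WT mouse 3 exceeded the KIKO mice, so the larger difference without it follows from leaving it out.

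**Figure D3:**
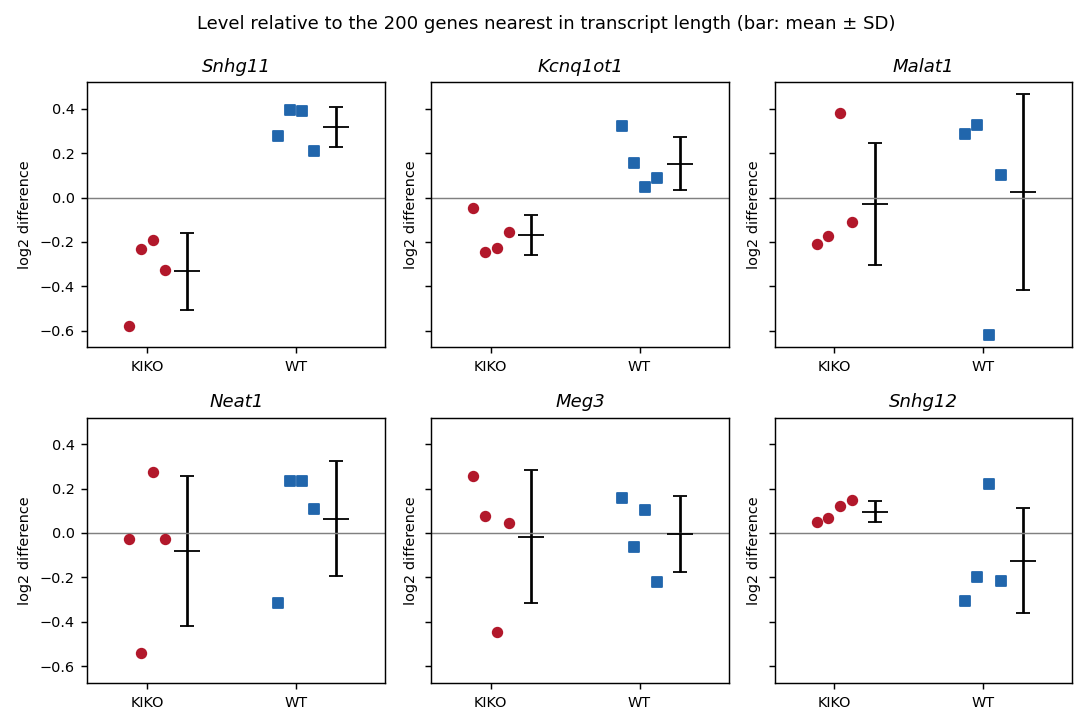
Log2 level of each long noncoding RNA relative to the 200 tested genes nearest in transcript length, for KIKO mice 1 to 4 (circles) and WT mice 1 to 4 (squares), with mean ± SD beside each group and 0 as the mean of all libraries. Snhg11 keeps the widest gap, with KIKO mice at -0.58 to -0.19 and WT mice at 0.21 to 0.39, Kcnq1ot1 keeps a narrow one, and the other 4 overlap.

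The members did not move as 1 group across the mice. Over the 8 libraries, *Snhg11* was most like *Kcnq1ot1* among the members (Pearson's r = 0.84 of log2 CPM) and less like *Malat1* (r = 0.35). *Kcnq1ot1* was also like *Meg3* (r = 0.71), and *Snhg11* like *Neat1* (r = 0.67). *Snhg12* ran opposite to *Kcnq1ot1* (r = -0.89) and to *Malat1* (r = -0.74), and *Malat1* and *Meg3* had r = 0.003. These are descriptions over 8 libraries that share genotype, depth and the length trend. Among all genes tested, those most like *Snhg11* were *Selenbp1*, *Pcdhga6* and *Fam222b* (r = 0.98, 0.98 and 0.97). Those most like *Malat1* were *Podn*, *Dhx15* and *Fblim1* (r = 0.99, 0.97 and 0.97), whose own log2 fold changes were -0.14, -0.15 and -0.31. Those most like *Kcnq1ot1* were *Gm20696*, *Cars* and *Ptprb* (r = 0.99, 0.99 and 0.98), of which *Ptprb* encodes a phosphatase of endothelial cells.

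Relatives and partners of the members were read from the same fit, where the median log2 fold change of all genes tested was -0.01. None of the lists of named relatives and protein partners held a gene that passed in edgeR, limma-voom or limma-trend, and their counts at an unadjusted p under 0.05 are set against 1794 of 11080 for all genes. Fits without WT mouse 3 are quoted for some lists. That mouse was the only WT library within the KIKO range of the length trend, so wider gaps without it follow in part from that choice. Over these lists and the genome neighbours, 19 genes passed without it. The count was 0 when any other single mouse was left out. Of the other snoRNA host RNAs, 5 were tested, 2 of them at an unadjusted p under 0.05 and none passing in DESeq2, with a median of 0.37. Of these, 4 had a log2 fold change above 0, the side of *Snhg12*. *Snhg18* was at 110, 108, 112 and 108 CPM in KIKO mice 1 to 4, and at 103, 75.1, 81.3 and 75.3 CPM in WT mice 1 to 4 (log2 fold change 0.39, edgeR adjusted p = 0.152). *Epb41l4aos* was at 37.0, 34.8, 34.3 and 36.6 CPM in KIKO mice, and at 25.7, 26.04, 30.1 and 28.8 CPM in WT mice (0.37, edgeR adjusted p = 0.183). In both, each KIKO mouse lay above each WT mouse, a pattern found in 3.89% of tested genes. *Snhg6* had a log2 fold change of 0.48 on 123 counts in all, *Snhg9* 0.18 and *Snhg20* -0.19, each with overlap between genotypes. The transcripts of these 5 were short, with a median of 816 bases, and shorter genes as a class were relatively higher in KIKO mice.

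**Figure D4:**
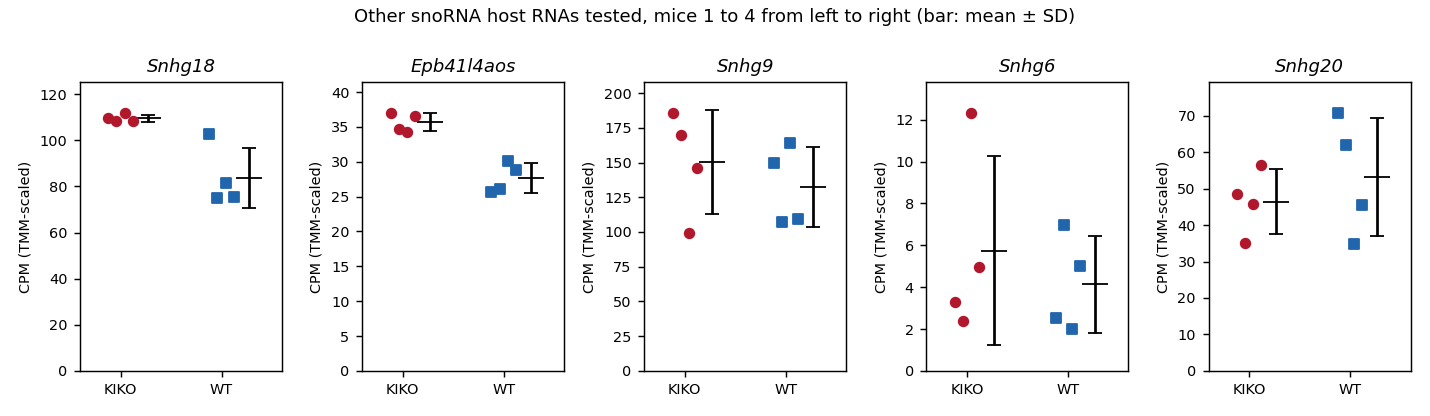
Level of the 5 other snoRNA host RNAs tested, in CPM scaled by TMM on axes from 0, for KIKO mice 1 to 4 (circles) and WT mice 1 to 4 (squares), with mean ± SD beside each group. KIKO mice lie above all WT mice for Snhg18 and Epb41l4aos and overlap with them for Snhg9, Snhg6 and Snhg20.

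Of 34 tested paraspeckle proteins, partners of *Neat1*, 3 had an unadjusted p under 0.05, none passed in DESeq2, and the median log2 fold change was -0.06. Without WT mouse 3, *Akap8l* and *Cpsf7* passed, 2 of 34 beside 5.81% of all genes in that fit. The core proteins *Nono*, *Sfpq* and *Pspc1* had -0.06, -0.18 and 0.27. *Akap8l* and *Cpsf7* had -0.52 and -0.55. Of 29 tested nuclear speckle genes, the compartment of *Malat1*, 10 had an unadjusted p under 0.05 and none passed in DESeq2. A negative log2 fold change was found in 79.3% of the list, against 51.0% of all genes, and the median was -0.17. Without WT mouse 3, 6 of the 29 passed, *Clk1*, *Clk4*, *Pnisr* and *Srrm2* among them, beside the same 5.81% of all genes, and the median was -0.25. None of the list passed when any other single mouse was left out. The 3 with the smallest p were *Clk4*, *Pnisr* and *Clk1* at -0.67, -0.56 and -0.44, of which *Clk1* and *Clk4* encode kinases of splicing factors. The scaffold genes *Srrm2* and *Son* had -0.38 and -0.26, and the splicing factor *Srsf1* had 0.17. The median transcript of this list was 4130 bases, against 3471 bases for all genes tested.

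Of 15 tested imprinted genes 3 had an unadjusted p under 0.05, and the median log2 fold change was 0.01. Only *Cd81* passed in DESeq2, and *Cd81* and *Peg3* passed in edgeR without WT mouse 3, where 5.81% of all genes did. *Cd81*, in the cluster of *Kcnq1ot1*, lay above all WT mice in each KIKO mouse, a pattern found in 3.89% of tested genes. Its level was 363 ± 17.0 CPM against 278 ± 23.1 CPM in WT mice (SD, n = 4 each; log2 fold change 0.39, edgeR adjusted p = 0.113). A link between *Cd81* and the level of *Kcnq1ot1* was not tested. *Cdkn1c*, a cell cycle inhibitor of the same cluster, had 60.1 ± 13.7 CPM in KIKO mice and 62.5 ± 7.61 CPM in WT mice (log2 fold change -0.06). *Peg3* and *Plagl1*, from other clusters, had -0.82 and -0.57 with overlap, and *H19* had 12 counts in all. Of 9 other named long noncoding RNAs 2 had an unadjusted p under 0.05, none passed in DESeq2, and their median was -0.28. The largest difference was that of *Lncpint*, at 5.94, 7.19, 10.7 and 9.37 CPM in KIKO mice and 29.5, 23.0, 7.36 and 10.05 CPM in WT mice (log2 fold change -1.07, edgeR adjusted p = 0.170), where WT mice 3 and 4 lay within the KIKO range. It passed without WT mouse 3, as did 5.81% of all genes. *Airn* and *Jpx* had -0.48 and -0.74.

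The factors that handle such RNAs gave little difference in the median. Of 16 tested factors of nonsense-mediated decay, which degrades spliced host RNAs, 3 had an unadjusted p under 0.05, and the median log2 fold change was 0.07. *Smg1* passed in DESeq2, and *Smg1*, *Eif4a3* and *Upf3b* passed in edgeR without WT mouse 3, beside 5.81% of all genes. *Upf1*, its central helicase, had 0.02, at 70.3 ± 6.11 CPM in KIKO mice and 69.6 ± 5.24 CPM in WT mice (SD, n = 4 each). *Smg1*, the kinase of *Upf1*, had -0.64 (edgeR adjusted p = 0.0623) on a transcript of 15557 bases, *Eif4a3* had 0.41 and *Upf3b* -0.42. Of the 10 snoRNP proteins 2 had an unadjusted p under 0.05, none passed in DESeq2, and the median was -0.03, with *Nhp2* at -0.43, *Snu13* at -0.42 and *Nop58* at 0.30. Of 14 tested genes of the exosome and nuclear decay 3 had an unadjusted p under 0.05, none passed in DESeq2, and the median was 0.06, with *Mtrex* at 0.41, *Zfc3h1* at -0.52 and *Pabpn1* at -0.53. Of 14 genes that write, read or erase N6-methyladenosine 1 had an unadjusted p under 0.05, none passed in DESeq2, and the median was -0.01, with *Hnrnpa2b1* at 0.28, *Virma* at 0.18 and *Fto* at 0.15.

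Among 34 tested genes within 100000 bases of a member, 1 passed, lower in KIKO mice, and the median was -0.04. This was *Zbtb37*, a zinc finger gene that overlaps *Gas5* on the opposite strand. *Gas5* had no row of its own, and the strand setting of the counting is not given. Reads of *Gas5* may therefore be counted for *Zbtb37* where the genes overlap, which was not tested. *Zbtb37* was at 12.5, 12.4, 15.2 and 12.9 CPM in KIKO mice 1 to 4. In WT mice 1 to 4 it was at 21.9, 25.4, 22.1 and 21.1 CPM, with no overlap between genotypes. Its log2 fold change was -0.77 (standard error 0.17, edgeR adjusted p = 0.0475), and its transcript of 18814 bases is among the longest tested. With length and GC content as an offset it was -0.48 and did not pass (edgeR adjusted p = 0.221), and of the fits that left out 1 mouse only that without WT mouse 3 passed it. *Phactr4* near *Snhg12* and *Ltbp3* near *Malat1* had -0.75 and -0.59 (edgeR adjusted p = 0.0593 and 0.0698). Near *Snhg11*, *Ralgapb* had -0.16, with each KIKO mouse below each WT mouse and edgeR adjusted p = 0.594, and *Lbp* had -0.01 with overlap.

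Of 228 other tested genes annotated as noncoding, 1 passed, lower in KIKO mice, and the median was -0.07. *Gm31517* was at 13.2, 25.2, 11.7 and 20.2 CPM in KIKO mice 1 to 4, and at 28.2, 50.0, 47.5 and 42.9 CPM in WT mice 1 to 4. Its log2 fold change was -1.27 (standard error 0.23, edgeR adjusted p = 0.0326), and with length and GC content as an offset it was -1.26 (edgeR adjusted p = 0.0405). It did not pass without KIKO mouse 1, 3 or 4 or WT mouse 2 or 4, with an adjusted p of at most 0.152 in edgeR. Noncoding genes together took 2.004% to 3.35% of the counts in KIKO libraries and 1.65% to 3.197% in WT libraries, with the lowest share in WT mouse 3.

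Markers of cell types in the tissue differed in level between the libraries. Endothelial markers summed to 304 to 509 CPM in KIKO mice and 479 to 599 CPM in WT mice, and mural markers to 361 to 509 CPM in KIKO mice and 470 to 532 CPM in WT mice. Both sums overlapped between genotypes. The median log2 fold change was -0.34 over 6 endothelial and -0.53 over 5 mural markers. It was 0.36 over 7 macrophage, 0.10 over 7 progenitor and fibroblast, and 0.40 over 5 mesothelial markers. Of the macrophage markers 1 passed as higher in KIKO mice, as did 1 mesothelial marker, beside 0.28% of all genes tested. Macrophage markers summed to 1867 to 2208 CPM in KIKO mice and 1468 to 1733 CPM in WT mice. Progenitor and fibroblast markers summed to 3174 to 3741 CPM in KIKO mice and 2588 to 2847 CPM in WT mice. Neither of these sums overlapped between genotypes. Mesothelial markers summed to 239 to 475 CPM in KIKO mice and 228 to 335 CPM in WT mice, with overlap. The part of these cell types in the levels of *Snhg11* and *Kcnq1ot1* was not tested.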

How the data were processed

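Per the labels, libraries were made with a digital mRNA-seq service and read single-end on a NovaSeq instrument. The paper's methods give TruSeq-stranded mRNA library preparation and a NextSeq500 instead. Both name Trimmomatic, HISAT2 and GRCm38, and the methods add StringTie for count matrices. The annotation release, the strand setting and any use of molecular identifiers are not given in the sources used here. The authors deposited raw counts per Ensembl gene. The authors also deposited log2 values, made by scaling every count by a factor of its library and adding 1, which entered 1 alternative.

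Counts were normalized by TMM and tested for genotype across 11080 genes with edgeR 4.0.16 (filterByExpr, quasi-likelihood test, Benjamini-Hochberg adjustment, threshold 0.05) in R 4.3.3. Standard errors of fold changes were derived from the quasi-likelihood F statistic. For length windows and correlations, log2 CPM used a prior count of 2. Smooth trends were fitted with mgcv 1.9.3. Transcript lengths, GC content and symbols came from GENCODE M21, which matched 31011 of 31053 identifiers, and start windows from RefSeq (GRCm38.p6). The alternatives were RLE, upper quartile and mitochondria-free totals, other filters, DESeq2 1.42.0, limma 3.58.1 (voom and trend), the replicate number as a block, an offset for length and GC content, and leaving out each mouse. The edgeR fit was tested on simulated counts, and the length and sequence steps were not. The check of the genotype at the targeted gene, and 1 gene of the lists, are not reported here. No pair of libraries of 1 genotype was a duplicate. The precision of each level is limited by its counts, which cover counting error only.

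The members, lists and tests were chosen with earlier results of these data known. Named genes are the members, a set of partners, and from each list those that passed and up to 3 with the smallest p. *Ralgapb*, *Lbp*, the genes most like *Kcnq1ot1*, *Snhg9*, *Snhg20* and the marker *Th* were named after their values were seen.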

Additional observations from a re-analysis of the deposited data

Results flagged for a closer look

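Among the 6 measured RNAs, 1 library was set far from the other 3 of its genotype in 2 cases, by the ratio of its gap to the range of the group. Such a ratio is expected by chance in about 1 in 20 groups. *Malat1* was at 8919 CPM in KIKO mouse 3, above the other KIKO mice by 0.847 of the range of the KIKO group. *Kcnq1ot1* was at 158 CPM in KIKO mouse 1, above the other KIKO mice by 0.924 of the range of the KIKO group, which was itself narrow, from 146 to 158 CPM.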

How the results depend on the processing

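The count of genes passing was 75, of which 31 were higher in KIKO mice. It was 382 with no filter on low counts, 260 with DESeq2, 40 with limma-voom, 45 with limma-trend and 32 with length and GC content as an offset. It ran from 0 to 654 when each mouse was left out in turn, with the highest count without WT mouse 3 (5.81% of 11261 genes). Without KIKO mouse 4, WT mouse 2 or WT mouse 4 it was 0 in edgeR, with 1328, 1344 and 1533 genes at an unadjusted p under 0.05. The 2 members that passed became 1 (*Snhg11*) with RLE, upper quartile, a mean of at least 10 counts, limma-voom, limma-trend and the length and GC offset, and ran from 0 to 2 without each mouse. *Snhg11* kept its direction in all 18 alternatives, from -0.74 to -0.59, and did not pass without KIKO mouse 1, 2 or 4 or WT mouse 2 or 4, or with the replicate block. *Kcnq1ot1* passed only with mitochondria-free totals, no filter, DESeq2 and without WT mouse 3, and was -0.10 with the length and GC offset. The count over the lists of named genes and the genome neighbours, which leaves out the list of all noncoding genes, was 1 (*Zbtb37*), and it was 0 with RLE, upper quartile, limma-voom, limma-trend and the offset, 3 with mitochondria-free totals, 8 with no filter, 5 with DESeq2, and 0 to 19 without each mouse. *Zbtb37* passed in 5 (adjusted p = 0.0202 to 0.221) and *Gm31517* in 12 (adjusted p = 2.97e-05 to 0.152) of 18 alternatives. The length trend difference ran from -0.37 to -0.24 without each mouse, with an exact permutation p = 0.0857 without KIKO mouse 1, 2 or 4 and p = 0.0571 without KIKO mouse 3 or WT mouse 1, 2 or 4. It was -0.31 (exact permutation p = 0.0286) with length as the union of exons and -0.15 (exact permutation p = 0.0571) with the median length, and p was 0.0571 with protein-coding genes only or another prior count. Against genes of like length, the difference with the median transcript length was -0.32 for *Meg3*, -0.35 for *Neat1* and -0.49 for *Kcnq1ot1*. That of *Kcnq1ot1* was -0.10 with a smooth trend. With the replicate block, 0 genes and 0 members passed, 1427 genes had an unadjusted p under 0.05, and the count over the lists was 0. Same-numbered mice correlated at -0.152, -0.133, -0.113 and 0.028, which gave no sign that the numbers pair the mice. These are deviations from means of 4 libraries, so the values constrain one another and cannot exclude a pairing. At 4 mice per genotype and 2602189 to 3478539 counts per library, RNAs such as *Snhg12* are measured with few counts, and small differences were not detectable.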
